A study of Mus musculus with 3 samples.

Results

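Setd1a CUT & RUN peaks that had another Setd1a peak close by were taken from the combined list of peaks in cultured quiescent adult neural stem cells (NSCs). A peak was a member when the nearest other peak on its chromosome lay no more than 1000 bp away, measured from edge to edge, on chromosomes 1 to 19. By this rule 464 peaks were members, of 6911 peaks on those chromosomes and 6969 in the whole list. They formed 227 groups, 217 of 2 peaks and 10 of 3 peaks, and at least 1 group was found on each of the 19 chromosomes. The members were chosen by the measured peak positions, so their spacing and widths are described here without a test.

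The experiment mapped where Setd1a sits on chromatin in the quiescent state. It had 2 Setd1a libraries, which used an Abcam antibody against Setd1a, and 1 IgG control library, all labelled WT and collected at day 5. The NSCs had been derived from the dentate gyrus of Hopx-CreERT2::Setd1a fl/fl::H2B-GFP mice aged 7 to 8 weeks, so by the labels these WT cells carried floxed Setd1a alleles, an inducible Cre driven from Hopx and an H2B-GFP reporter. The labels also call them neural progenitor cells. Quiescence was induced by culture with BMP4 and FGF2, each at 20 ng/ml, without EGF. The authors called peaks in each Setd1a replicate and kept those found in both, so 1 list of intervals stands for both libraries, the spread between replicates cannot be measured from it, and the depth is unknown. Intervals given below are 95% Wilson intervals for a share and 95% Newcombe intervals for a difference of shares. They cover counting error over peaks or groups, and peaks of the same group are not independent of each other.

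Setd1a is a catalytic subunit of a COMPASS complex that methylates histone H3 at lysine 4, a mark of active promoters. The complex contains Cxxc1 (Cfp1), whose CXXC zinc finger binds unmethylated CpG, and in mammals it is found mainly at promoters with CpG islands, stretches of DNA that keep a high density of CpG. At active promoters a nucleosome-depleted region at the transcription start site (TSS) is commonly flanked by nucleosomes that carry H3K4 methylation. In CUT & RUN a nuclease tethered to an antibody clips the chromatin around its target, and a peak marks where the freed and sequenced fragments piled up.

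DNA of 3 groups is printed to show what lay under neighbouring peaks and between them. All windows are the + strand of mm10 (GRCm38), read from the RefSeq assembly, and lie outside every exon annotated by GENCODE or RefSeq. Capitals mark CpG. *Id4*, an inhibitor of basic helix-loop-helix factors expressed in quiescent NSCs, stands for groups at a TSS. *Son*, which encodes a splicing cofactor and shares its promoter with the purine synthesis gene *Gart*, stands for groups over a divergent promoter. *Hdac4*, which encodes a class IIa histone deacetylase, holds a group inside the gene, far from any TSS.

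*Id4* left peak, chr13:48260404-48260563: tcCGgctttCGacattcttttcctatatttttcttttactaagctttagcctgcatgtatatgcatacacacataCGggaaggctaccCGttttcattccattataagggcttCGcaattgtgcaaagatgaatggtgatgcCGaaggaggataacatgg
*Id4* gap, chr13:48260760-48260919: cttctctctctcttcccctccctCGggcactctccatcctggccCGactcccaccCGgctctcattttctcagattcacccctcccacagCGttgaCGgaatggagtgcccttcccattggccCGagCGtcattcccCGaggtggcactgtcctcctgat
*Id4* right peak, chr13:48260962-48261111: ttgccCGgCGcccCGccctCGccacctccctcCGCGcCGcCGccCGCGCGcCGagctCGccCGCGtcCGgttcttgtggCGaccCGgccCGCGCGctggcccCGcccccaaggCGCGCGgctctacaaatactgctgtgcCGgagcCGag
*Son* left peak, chr16:91646994-91647153: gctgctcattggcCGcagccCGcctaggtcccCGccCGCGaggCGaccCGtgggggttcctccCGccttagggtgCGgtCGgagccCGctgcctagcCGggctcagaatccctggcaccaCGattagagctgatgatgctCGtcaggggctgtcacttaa
*Son* gap, chr16:91647346-91647505: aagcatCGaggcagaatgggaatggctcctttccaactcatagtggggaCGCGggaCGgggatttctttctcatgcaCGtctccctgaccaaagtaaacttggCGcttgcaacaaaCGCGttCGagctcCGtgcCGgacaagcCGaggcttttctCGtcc
*Son* right peak, chr16:91647989-91648058: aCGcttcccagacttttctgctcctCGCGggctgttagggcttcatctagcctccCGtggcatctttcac
*Hdac4* left peak, chr1:92099475-92099634: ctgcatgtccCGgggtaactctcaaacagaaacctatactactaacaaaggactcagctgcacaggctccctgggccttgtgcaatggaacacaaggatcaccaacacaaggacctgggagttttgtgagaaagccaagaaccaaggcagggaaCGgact
*Hdac4* gap, chr1:92099921-92100080: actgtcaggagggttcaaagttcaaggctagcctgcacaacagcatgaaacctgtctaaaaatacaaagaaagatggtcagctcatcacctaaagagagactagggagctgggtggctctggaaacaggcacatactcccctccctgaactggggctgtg
*Hdac4* right peak, chr1:92100532-92100691: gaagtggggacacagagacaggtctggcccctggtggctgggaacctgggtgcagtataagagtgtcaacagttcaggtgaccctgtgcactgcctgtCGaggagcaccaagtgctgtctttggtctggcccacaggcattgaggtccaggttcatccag

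The *Id4* windows held 6 CpG in the left peak, 8 in the gap and 27 in the right peak, which lies over the TSS. The *Son* windows held 14 and 13 CpG in the left peak and the gap, with 4 in the shorter window of 70 bp of the right peak. The *Hdac4* windows held 2, 0 and 1. The stretch between the peaks held CpG in both promoter groups shown, and CpG was nearly absent from the windows of the group inside *Hdac4*. A wider group beside *Kdm6b*, also without a GENCODE TSS within 3000 bp, is not printed. Its windows of 160 bp held 10 CpG in the gap and 4 in the left peak, and RefSeq places a start in its span.

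Neighbouring peaks were mostly very close. The 237 gaps within groups had a median of 372 bp, with quartiles of 284 and 536 bp and a range from 234 to 1000 bp, and 131 of them (55.3%, 48.9% to 61.5%) were 400 bp or less. No peak in the groups was narrower than 233 bp and no gap was shorter than 234 bp, so the smallest gap was about as long as the narrowest peak. There were 71 gaps of over 200 to 300 bp, 60 of over 300 to 400 bp, 58 of over 400 to 600 bp, 27 of over 600 to 800 bp and 21 of over 800 to 1000 bp. Past the threshold, 76 pairs lay over 1000 to 2000 bp apart and 39 over 2000 to 3000 bp. The spacing therefore fell off well before 1000 bp. Pairs just inside the threshold were at *Nabp2* (999 bp) and *Gm10718* (993 bp), and those just outside it were at *Cnksr3* (1003 bp), *Ube2ql1* (1009 bp) and *Slc44a3* (1028 bp).

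**Figure D1:**
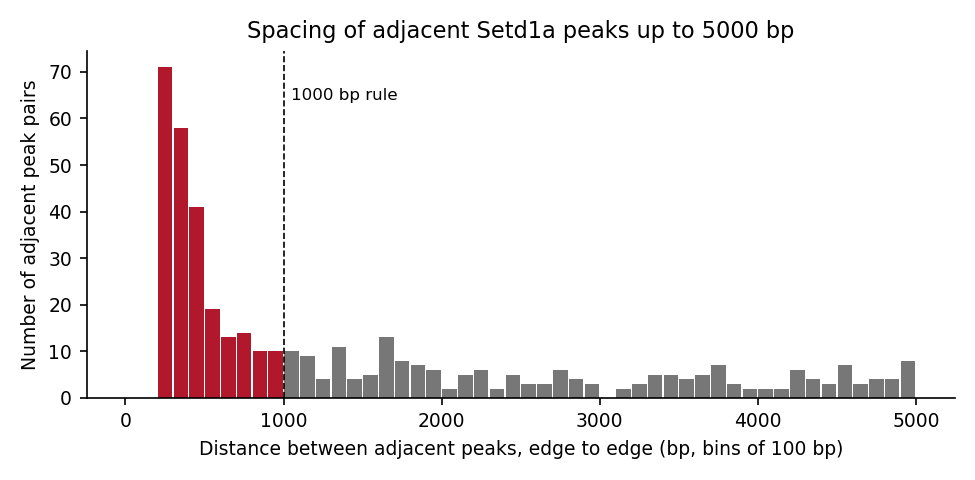
Number of adjacent Setd1a peak pairs on chromosomes 1 to 19 (vertical axis) by the distance between their facing edges in bins of 100 bp (horizontal axis), up to 5000 bp. Red bars are pairs within 1000 bp, the rule that chose the members; most sit at 234 to 600 bp, and no pair is closer.

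A whole group, from the first base of its first peak to the last base of its last, spanned a median of 1330 bp (quartiles 1150 and 1722 bp, range 777 to 4735 bp). The peaks of a group together covered a median of 919 bp, more than the median of 470 bp of the 6447 peaks without a neighbour, here called single peaks. Taken one by one, members were narrower (median 425 bp, quartiles 320 and 636 bp), the quartiles of single peaks being 330 and 692.5 bp. Among peaks within 3000 bp of a TSS the medians were 426 bp for members and 518 bp for single peaks. Members formed 6.71% (6.15% to 7.33%) of the peaks on chromosomes 1 to 19. Chromosome 2 had the lowest share, 3.37%, and chromosome 10 the highest, 10.6%.

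Members lay at promoters more often than single peaks. A promoter here is the 3000 bp on either side of the TSS of any GENCODE M21 transcript. Of the 464 members, 415 (89.4%, 86.3% to 91.9%) were within it, against 69.0% (67.9% to 70.1%) of single peaks and 70.4% of all peaks. The difference was 20.4 percentage points (17.1 to 23.2), and its interval left out 0. Further measures depend on the rule itself, because peaks parted by a gap cannot all cover the same TSS, and the neighbour of a peak over a TSS must stand beside that TSS. Members overlapped a TSS in 43.5% of cases (39.1% to 48.1%), single peaks in 49.3% (48.1% to 50.5%) and all peaks in 48.9%, a difference of -5.74 points (-10.4 to -1.04). The nearer edge was 1 to 500 bp from a TSS for 32.3% of members and 11.7% of single peaks, 501 to 1000 bp for 8.62% and 2.59%, and 1001 to 3000 bp for 4.96% and 5.43%. These shares are a description, without a test, since the rule fixes much of them.

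Counted by group, a TSS was covered more often than by single peaks, but this way of counting favours groups. When each group was counted once, 159 of 227 groups (70.0%, 63.8% to 75.6%) had a TSS under at least 1 of their peaks, 20.8 points (14.4 to 26.5) more than single peaks. Among groups and single peaks within 3000 bp of a TSS the shares were 77.9% and 71.4%, a difference of 6.53 points (0.218 to 11.9). A group scores through any of its peaks, and its peaks together covered a median of 919 bp, against 470 bp for a single peak. The differences by group are therefore a description, since the unit of counting fixes part of them. How much of them it explains was not tested. With a neighbour distance of 500 bp in place of 1000 bp, the difference in TSS overlap between member and single peaks was -4.89 points (-10.2 to 0.573).

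**Figure D2:**
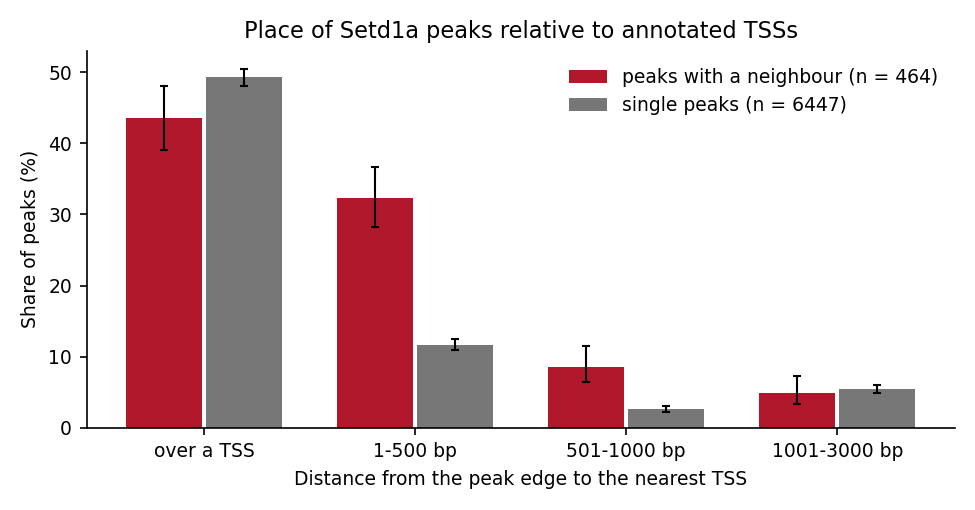
Share of peaks (vertical axis, %) by the distance from the peak's nearer edge to the nearest TSS of any GENCODE M21 transcript (horizontal axis), for 464 peaks with a neighbour (red) and 6447 single peaks (grey); bars on the columns are 95% Wilson intervals. The red column is lower over a TSS (43.5% against 49.3%) and higher at 1 to 500 bp (32.3% against 11.7%), which the rule that chose the members partly fixes.

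Sorted by where the TSSs fell, 188 of 227 groups (82.8%, 77.4% to 87.2%) had a TSS somewhere in their span. A TSS lay under some of the peaks in 123 groups, under every peak in 36 groups, and only in a gap in 29 groups. A further 16 groups had no TSS in their span but 1 within 3000 bp, and 23 groups had none within 3000 bp. When only protein-coding transcripts were counted, these numbers were 116, 21, 37, 19 and 34, and 174 groups (76.7%, 70.7% to 81.7%) had a TSS in their span. The most common arrangement was thus a peak over the TSS with a partner beside it.

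The partner was found as often upstream as downstream. Of the 2-peak groups, 108 had protein-coding TSSs under exactly 1 peak. In 21 of them coding TSSs in the span ran in both directions, which left 87 with a single direction of transcription. The partner lay downstream in 44 (50.6%, 40.3% to 60.8%) and upstream in 43. All 44 downstream partners lay inside a transcript of the gene. The definition largely fixes this, since a downstream partner starts no more than 1000 bp past the TSS peak. The median width of the partner was 408.5 bp downstream and 438 bp upstream. The TSS peak was the wider one in 24 of 44 and 23 of 43 groups, and the interval of the difference in these shares, -19.1 to 21.1 points, held 0. The gaps had medians of 375.5 and 335 bp. An antisense TSS lay under 3 of 44 downstream and 3 of 43 upstream partners. By the choice of these groups a partner covers no coding TSS, so only starts of transcripts not typed as protein-coding could be counted.

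The TSS peak usually had the denser CpG. The ratio of observed to expected CpG, which is 1 where CpG occurs as often as the base counts predict, was higher in the TSS peak in 31 of 44 groups with a downstream partner and 32 of 43 with an upstream one. Its medians were 0.842 in the TSS peak and 0.677 in the partner for downstream partners. For upstream partners they were 0.829 and 0.635. The median G+C content of the partner was 61.7% downstream and 54.5% upstream. Both medians of the CpG ratio in partners were above 0.6, the usual bound for a CpG island.

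Seen across all groups with a protein-coding TSS within 3000 bp, peaks stood on both sides of the TSS with a dip near it. Aligned on the TSS nearest the middle of the group, 58.0% of 193 groups had a peak 300 bp upstream, 40.4% had 1 at 100 bp upstream, 49.2% at the TSS and 59.1% at 200 bp downstream. Single peaks were most frequent around the TSS itself, where 71.9% of 3994 had a peak. The alignment itself favours a dip for groups, since the middle of a 2-peak group lies in or near its gap. In the 51 groups with only 1 coding TSS position within 3000 bp, which leaves nothing to choose, the shares were 49.0% at 300 bp upstream, 35.3% at 100 bp upstream, 47.1% at the TSS and 58.8% at 100 bp downstream. For the 1199 single peaks of that kind the share at the TSS was 58.0%. Within 300 bp of the TSS the lowest point of the groups was 100 bp upstream with either alignment. In the 51 groups the share was just as low at 450 bp upstream (35.3%), and it was 43.1% at 150 bp upstream. That profile is uneven and rests on few groups, every group holds a gap by the rule, and the dip was not tested. The shares at 50 bp upstream were nearly as low, 41.5% of the 193 and 37.3% of the 51 groups, so the position is approximate.

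**Figure D3:**
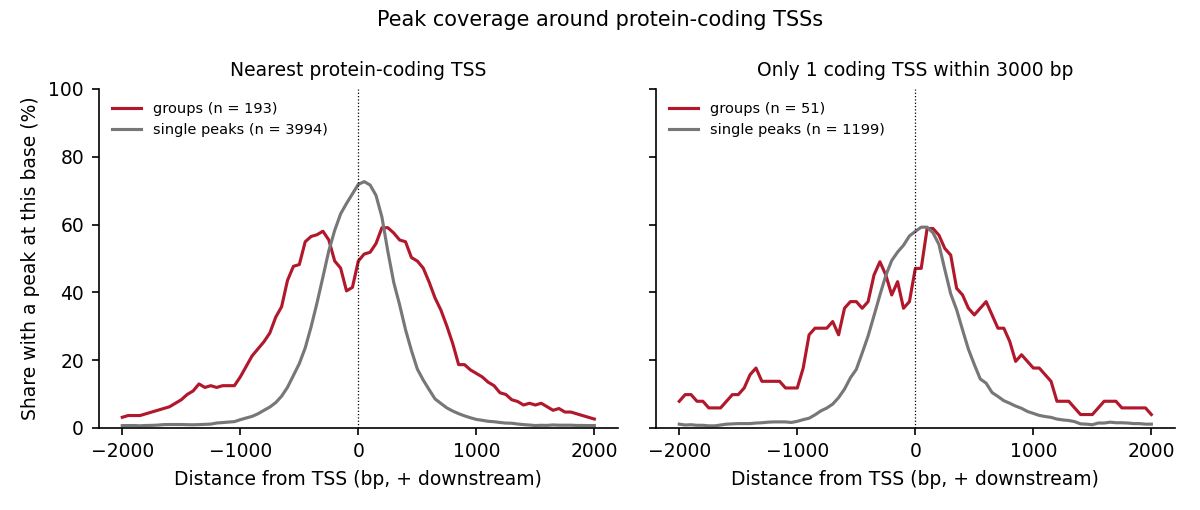
Share of groups (red) and single peaks (grey) with a peak at each distance from a protein-coding TSS (horizontal axis, bp, every 50 bp, positive values downstream). On the left items are aligned on the coding TSS nearest their middle (193 groups, 3994 single peaks) and on the right only items with 1 coding TSS position within 3000 bp are used (51 groups, 1199 single peaks); the groups stand at 40.4% and 35.3% at 100 bp upstream, where single peaks stand at 66.2% and 53.9%. The right profile of the groups is uneven, with 35.3% also at 450 bp upstream.

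Groups with a coding TSS only in the gap numbered 37, of which 36 had 2 peaks and 35 of these had TSSs in a single direction. In these 35 the TSS lay a median of 187 bp from the upstream peak (range 33 to 651 bp) and 164 bp from the downstream peak (3 to 597 bp). The downstream peak was the wider in 14 of 35 (40.0%, 25.6% to 56.4%). At *Irx5*, a homeobox gene, peaks of 752 and 423 bp stood 33 bp upstream of the first TSS in the gap and 501 bp downstream of the last. At *Setd2*, the enzyme that trimethylates histone H3 at lysine 36, peaks of 458 and 233 bp stood 243 bp upstream and 527 bp downstream. *Msl1* and *Msl2*, subunits of the complex that acetylates histone H4 at lysine 16, were both of this kind, with gaps of 730 and 359 bp. So were *Pik3r1*, a regulatory subunit of PI3-kinase (gap 378 bp), *Stag1*, a cohesin subunit (680 bp), and *Nr4a3*, an orphan nuclear receptor (807 bp). *Irx5* follows the rule for named groups, and the other genes of this paragraph were picked after their values were seen.

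Whether a TSS falls in a gap depends on the annotation. By RefSeq mRNA starts, 49 groups had a TSS only in the gap, 103 under some peaks, 22 under every peak, 19 none in the span but 1 within 3000 bp and 34 none within 3000 bp. Both annotations gave the same class for 163 of 227 groups. Of the 37 groups with a GENCODE coding TSS only in the gap, 26 were also gap-only by RefSeq, among them *Irx5*, *Setd2*, *Msl1*, *Msl2*, *Pik3r1*, *Stag1* and *Nr4a3*, while 8 had a RefSeq start under a peak. *Sox2*, the HMG-box factor that maintains NSC identity, was one of those 8. Its peaks were 832 and 659 bp wide with a gap of 349 bp. The GENCODE TSS lay in the gap, 104 bp from the upstream and 246 bp from the downstream peak, and the RefSeq start lay 410 bp further upstream, under the upstream peak. *Ptch1* went the other way, with the GENCODE start under its middle peak and the RefSeq start 461 bp further upstream, in a gap. The count of groups with a TSS in their span moved less, to 79.3% with RefSeq transcripts of every kind.

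Coding TSSs lay under both peaks in 20 of the 2-peak groups. In 14 of them the same gene had TSSs under both, as at *Zfp143*, a zinc finger activator (peaks of 558 and 579 bp, gap 284 bp), *Sp1*, the GC-box binding factor (821 and 352 bp, gap 246 bp), and *Atxn2l*, an RNA-binding protein (719 and 1148 bp, gap 461 bp). By RefSeq mRNA starts this held at *Atxn2l*, while *Zfp143* had starts under only 1 of its peaks and *Sp1* only in the gap. In 5 groups the peaks covered the starts of 2 genes transcribed away from each other. These were *Gart* and *Son* (534 and 327 bp, gap 400 bp), *Asna1* and *Trir* (895 and 1031 bp, gap 660 bp), *Cyb5d2* and *Zzef1* (387 and 361 bp, gap 278 bp), *Tmed7* and *Eif1a* (252 and 314 bp, gap 429 bp), and *Actr1a* and *Sufu* (713 and 698 bp, gap 471 bp). In the remaining group, *Zc3h10* and the ribosomal protein gene *Rpl41* started under the 2 peaks without a divergent arrangement.

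The 10 groups of 3 peaks included 9 at promoters outside repeats. In 7 of those 9 the coding TSS nearest the middle of the group lay under a peak, and in the other two, *Ptma* and *Tsen34*, it lay in a gap. *Hivep2*, a zinc finger transcription factor, had peaks of 916, 416 and 1100 bp with gaps of 294 and 352 bp, and the middle one covered the TSS. *Marcks*, an actin-binding substrate of protein kinase C, had peaks of 699, 1013 and 1149 bp over a span of 4487 bp, again with the middle one over the TSS. The middle peak also held the TSS at *Ptbp1*, the splicing repressor of neural progenitors (583, 1008 and 320 bp), at *Nemp1*, a nuclear envelope protein (331, 471 and 368 bp), and at *Ptch1*, the Hedgehog receptor (253, 894 and 324 bp). By RefSeq mRNA starts, *Nemp1* and *Ptch1* had a TSS only in a gap. Some side peaks covered annotated starts too. The last peak listed covered a start of *Hivep2* at *Hivep2*, of *5930403N24Rik* at *Marcks* and of *Nab2* at *Nemp1*. The first peak at *Ptch1* covered a start of *Ptch1*. The order differed at *Jun* and *Ier2*, immediate early genes. *Jun* had a peak of 666 bp over the TSS and narrower peaks of 286 and 277 bp upstream, up to 1589 bp from it. The peak of 286 bp covered a start of *Junos*. *Ier2* had a peak of 1006 bp over the TSS and peaks of 344 and 296 bp upstream, up to 2192 bp from it. *Ptma*, which encodes the chromatin protein prothymosin alpha, had peaks of 489, 421 and 287 bp with the GENCODE TSS in a gap and the RefSeq start under the first peak. *Tsen34*, a subunit of the tRNA splicing endonuclease, had narrow peaks of 266, 236 and 293 bp, and each overlapped the start of some coding transcript.

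**Figure D4:**
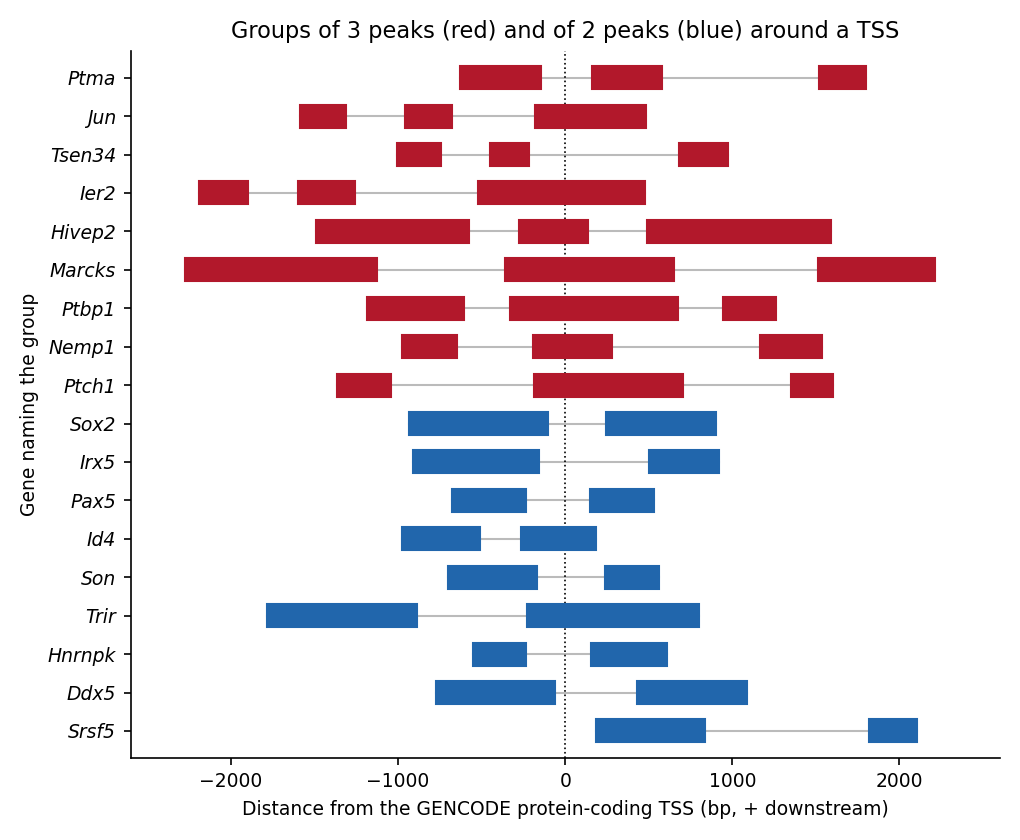
Peaks of 18 named groups (boxes, to scale) by distance from the GENCODE protein-coding TSS nearest the middle of the group (horizontal axis, bp, positive values downstream), with 9 groups of 3 peaks in red and 9 groups of 2 in blue; grey lines join the peaks of a group. The dotted TSS line crosses a peak at 7 of the 9 red groups. Among the blue groups it crosses a peak at Id4 and Trir, and both peaks lie downstream of it at Srsf5. It runs through the gap at Sox2, Irx5, Pax5, Son, Hnrnpk and Ddx5, and at Son, Hnrnpk and Ddx5 other coding TSSs lie under a peak.

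Among genes fixed in lists by function, clustered promoter peaks were few and uneven. Of 20780 protein-coding genes on chromosomes 1 to 19, 4828 had a promoter peak and 242 of these (5.01%) had one with a neighbour. Of 30 NSC factors, 19 had a promoter peak and 3 of them a clustered one, *Sox2* and *Id4* among them. *Id4* had a peak of 451 bp over its TSS and 1 of 468 bp upstream, with a gap of 244 bp.

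Of 21 genes for splicing and RNA binding, 18 had a promoter peak and 6 a clustered one. *Hnrnpk* had peaks of 457 and 317 bp on either side of the coding TSS nearest the middle of the group, at 154 to 610 bp downstream and 237 to 553 bp upstream, and other starts of *Hnrnpk* lay under the downstream peak. *Ddx5*, an RNA helicase, had peaks of 661 bp downstream and 713 bp upstream of such a TSS, with a gap of 488 bp, and the upstream peak covered other starts of *Ddx5* and a start of *Cep95*. *Srsf5* had both peaks downstream of its coding TSS, 656 and 288 bp wide with a gap of 982 bp, and the wider covered a start of another of its transcripts. *Hnrnpa2b1* shared a group with the divergent gene *Cbx3* (1107 and 499 bp), and *Son* was described above. These 6 of 18 compare with the 5.01% of all genes with a promoter peak, and no test was made of any list.

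Of 7 genes of the Setd1a complex and H3K4 enzymes with a promoter peak, only *Setd1b*, the paralogue of *Setd1a*, had a clustered one. Its peaks of 420 and 361 bp lay 2450 to 3595 bp upstream of its coding TSS. The peak of 420 bp covered a TSS of another gene, *4932422M17Rik*. Of 13 Notch and BMP pathway genes with a promoter peak, only *Notch1* had a clustered one. Its peaks of 316 and 435 bp lay inside the gene, 2138 to 3451 bp downstream of the TSS. None of 7 cell cycle genes with a promoter peak had a clustered one. The count was 7 of 117 for zinc finger genes, 1 of 39 for ribosomal protein genes (*Rpl41*), 3 of 31 for histone genes, all at 1 group beside *Hist1h2ai*, and 2 of 7 for homeobox and Pax genes (*Irx5* and *Pax5*). The *Pax5* group, with peaks of 447 and 385 bp around a GENCODE TSS, had no RefSeq mRNA start within 3000 bp. For the labelled cell type, promoter peaks were present at 6 of 10 NSC markers and 3 of 5 oligodendrocyte lineage markers, and at none of 5 neuronal, 6 microglial and 6 endothelial markers. The count over all protein-coding genes was 4828 of 20780. These marker lists are short, and no difference from that count was tested.

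By their medians the gaps were as rich in CpG as the peaks around them. In windows of 200 bp, the median ratio of observed to expected CpG was 0.728 at the middle of 464 member peaks, 0.753 at the middle of 237 gaps and 0.451 in 472 windows outside the groups, placed as far from the outer edge as the middle of the gap lay from its edges. The G+C medians were 60.5%, 63.5% and 50.5%. Measured over whole intervals, only 48 of 237 gaps (20.3%, 15.6% to 25.8%) had a lower CpG ratio than both of their peaks. Of the gaps, 152 (64.1%, 57.9% to 70.0%) met the usual criteria of a CpG island, G+C of at least 50% and a ratio of at least 0.6. The reference marks repeats by soft-masking, in lower case. A soft-masked base was present in 165 of 237 gaps (69.6%), and 9 gaps (3.80%) were more than 50% soft-masked. In the windows of 200 bp the median soft-masked share was 9.50% in the gaps and 0% in the peaks. Most gaps between neighbouring peaks therefore had no dip in CpG.

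**Figure D5:**
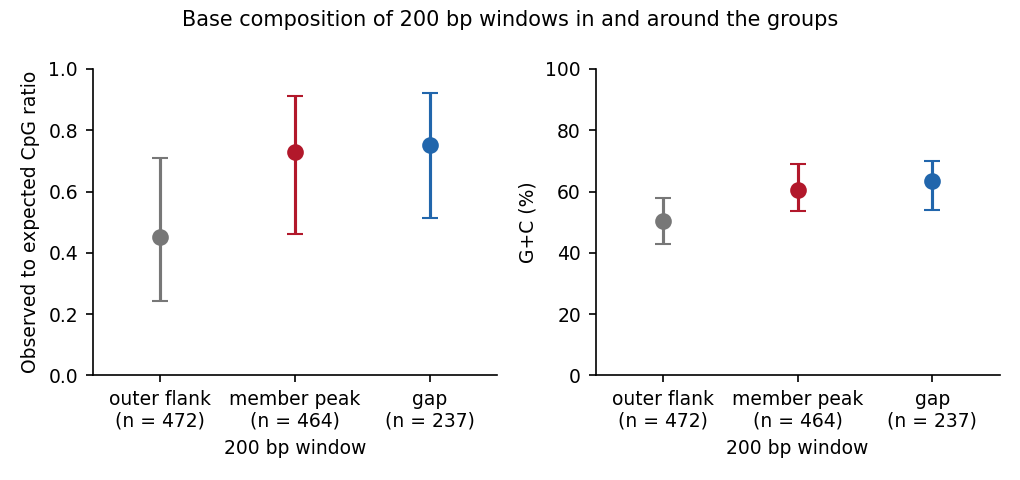
Observed to expected CpG ratio (left) and G+C content in % (right) of 200 bp windows in the outer flanks, at the middle of the member peaks and at the middle of the gaps; dots are medians and bars run from the lower to the upper quartile. The gaps (0.753, 63.5%) match the peaks (0.728, 60.5%) and stand above the flanks (0.451, 50.5%).

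Taken over whole groups, 170 of 227 spans (74.9%, 68.9% to 80.1%) were CpG island-like. They were 162 of 188 (86.2%) among groups with a TSS in the span, 5 of 16 among those with a TSS only nearby and 3 of 23 among the others. Peak by peak, 59.7% of members (55.2% to 64.1%), 53.0% of single peaks and 53.5% of all peaks were CpG island-like, and the difference of 6.68 points (2.00 to 11.2) left out 0. Peaks of a group share a locus, and with 1 peak per group the difference no longer passed, at 2.49 points (-4.13 to 8.93), nor did it with a neighbour distance of 2000 bp, at 2.17 points (-2.03 to 6.29). The higher share of members was not seen when peaks near a TSS and peaks far from one were compared apart. Among peaks within 3000 bp of a TSS, members were CpG island-like less often, at 66.3% against 75.4%, a difference of -9.10 points (-13.9 to -4.53). Beyond 3000 bp, 2 of 49 members (4.08%) and 65 of 1998 single peaks (3.25%) were. That difference was 0.828 points (-2.25 to 10.5), and its interval held 0.

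Short words recognised by promoter factors, read on both strands in the 200 bp at the middle of each peak, are given as shares, without a test. The GC box GGGCGG of Sp and Klf factors occurred in 35.8% of members, 35.4% of all peaks and 46.0% of gaps. The CCAAT box bound by NF-Y occurred in 20.0% of members, 24.5% of all peaks and 21.5% of gaps. The ETS word TTCCGG occurred in 10.1%, 12.5% and 11.4%, and the E-box CACGTG in 4.96%, 5.25% and 8.02%. The Nrf1 word GCGCATGC was in 2.16%, 2.36% and 1.69%, the Yy1 word AAGATGGC in 1.51%, 2.69% and 3.38%, and the CRE TGACGTCA in 1.08%, 1.53% and 0.844%. Of these 7 words the GC box was the most frequent in the gaps.

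Among the named groups with wide peaks, some lay at genes of other kinds, and they are given as examples, not as the widest. Peaks of 1421 and 670 bp lay at *Ing1*, a chromatin regulator, with the wider over the TSS and the other 1176 to 1845 bp downstream. *Peg3*, an imprinted zinc finger gene, had peaks of 1395 bp over its TSS and 805 bp downstream. *Fosb*, an AP-1 subunit, had peaks of 1105 bp downstream and 565 bp upstream of the GENCODE coding TSS nearest the middle of the group. The upstream peak covered another GENCODE coding start of *Fosb* and its RefSeq starts. At *Tlcd2* peaks of 640 and 2333 bp, separated by 351 bp, had TSSs only of transcripts not typed as protein-coding. *Adamts1*, which encodes a secreted protease, had peaks of 919 and 724 bp that both covered coding TSSs.

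The 23 groups with no GENCODE TSS within 3000 bp were 3306 to 42540 bp from the nearest one, with a median of 12278 bp. Of these, 13 lay inside a protein-coding gene, 9 in no gene and 1 in a non-coding gene only. Their gaps were as short as those at promoters, with a median of 326 bp against 378.5 bp for groups with a TSS in the span. Their median CpG ratio over the span was 0.224 (0.773 with a TSS in the span) and their median G+C 52.5% (62.8%). The widest were at *Kdm6b*, which encodes an H3K27 demethylase (1815 and 477 bp), inside *Hdac4* (551 and 883 bp) and inside *Gse1*, beside *Gm22715* (672 and 704 bp). The *Hdac4* group lay 12278 bp from a TSS. Others lay inside *Lrig1*, a negative regulator of growth factor receptors (414 and 434 bp, 23840 bp from a GENCODE TSS), and 26809 bp from a TSS of the collagen gene *Col5a1* (303 and 390 bp). By RefSeq, 7 of the 23 had a start within 3000 bp and 3 in their span, which were *Lrig1* and both groups beside *Kdm6b*.

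Repeats made up 5 groups with 11 peaks, whose spans were 84.1% to 96.6% soft-masked and 34.3% to 35.3% G+C. The predicted genes that name 4 of them, *Gm11168*, *Gm10719*, *Gm10718* and *Gm10717*, lie close together at the start of the sequenced part of chromosome 9, and *Gm21738* lies on chromosome 14. *Gm11168* had 3 peaks of 488, 2320 and 623 bp, and its span of 4735 bp was the longest of the 227. The paper states that reads were mapped uniquely and that those of low mapping quality were removed. How alike these repeats are was not measured. Reads in repeats may still be placed with less certainty, so these groups are uncertain. Without peaks more than 50% soft-masked, 453 members in 222 groups remained, the promoter difference was 19.3 points (15.9 to 22.1) and the TSS overlap difference -6.66 points (-11.3 to -1.90).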

How the data were processed

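Setd1a CUT & RUN libraries were made with the CUTANA kit. Per the submitters' processing notes, bcl2fastq 2.17.1.14, Trimmomatic 0.32, Bowtie2 2.1.0, SAMtools 0.1.18 and MACS2 2.2.8 were used with mm10. The authors called peaks in each replicate and deposited those found in both as 1 list of chromosome, start and end, with no height or score. Whether IgG served as control and how intervals were joined are not given in the sources used here. Peak calling joins stretches closer than a set gap, so the spacing of peaks depends on that setting, which was left at the default of MACS2.

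Coordinates were taken as 1-based and inclusive. Chromosomes 1 to 19 were used, which left out 58 peaks, and every peak lay within the GRCm38 lengths. TSSs came from GENCODE M21 and, as an alternative added after seeing the data, from RefSeq (GRCm38.p6). Groups were named by the TSS nearest their middle, protein-coding first where one lay within 3000 bp. Named groups were all groups of 3 peaks, the 10 longest spans, the 5 smallest and 5 largest gaps, the 3 with most peak bases in each TSS class of 2-peak groups, the 5 farthest from a TSS and all at genes of the lists. Those described are a selection of them, and some are not reported here. Members, lists and comparisons were chosen with earlier results of these data known. Differences of shares were called where the 95% Newcombe interval left out 0. Those in TSS overlap were not called, since the rule fixes much of them. Python 3.11.15, numpy 2.4.6, pysam 0.24.0, samtools 1.23.1 and matplotlib 3.10.9 were used. Group finding, distances and intervals were tested on simulated data. Alternatives covered the neighbour distance (500 and 2000 bp), the midpoint distance, peaks of at least 300 bp, the TSS set, the promoter window (1000 bp), windows of 200 bp and 1 peak per group.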

Additional observations from a re-analysis of the deposited data

How the results depend on the processing

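Of 54 recomputed values, 45 kept their direction and their side of the threshold, or stayed within the interval of the value given or within 1.5 times the count. The promoter share difference passed under all 9 of its alternatives, at 15.4 to 22.5 points. With peaks of at least 300 bp only, 291 members in 143 groups remained. The TSS overlap difference is a description, since the rule fixes much of it. It was -4.89 points (-10.2 to 0.573) with a neighbour distance of 500 bp. It was 20.8 points when each group was counted once, over a TSS where any of its peaks was. That last count favours groups, which have more peaks and more bases to cover a TSS. The CpG island-like difference no longer passed with a neighbour distance of 2000 bp (2.17 points) or with 1 peak per group (2.49 points), and turned to -9.10 points among peaks within 3000 bp of a TSS. The difference in median width of -45.0 bp moved to -92.0 bp among those peaks. The share of groups with a TSS in their span moved to 76.7% with protein-coding transcripts only. The RefSeq, repeat and group-counted settings were chosen after seeing the data, as was the limit to peaks within 3000 bp of a TSS for TSS overlap and CpG island-like shares, but not for widths. No replicate could be left out, because the list combines both Setd1a replicates, and no paired analysis was possible because the Setd1a and IgG libraries share 1 replicate number and have no values of their own here. Depth is unknown, so a gap or a gene without a peak means only that the list holds none there.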
